A study of Mus musculus with 15 samples.

Results

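The genes described here are 8 genes known from the epithelium of the stomach, Vsig1, Tff1, Tff2, Muc5ac, Muc6, Atp4a, Pgc and Gkn3, followed through RNA-seq of mouse small intestinal organoids with and without added SOX9. They were taken by symbol from the count tables, and all 8 were found among the 78298 genes listed there. Poly-A RNA was sequenced from 15 libraries, 3 for each of 5 conditions, of organoids grown from crypts of female mice on a C57BL/6J background that were 8 to 16 weeks old. All lines carried a lentiviral transgene driven by the L30 promoter with a puromycin resistance. Halo-NLS, the control, expressed the HaloTag with a nuclear localization signal (L30prom_V5-Halo-GDGAGLIN-NLS_IRES_Puro). SOX9-Halo_budding and SOX9-mEGFP_budding expressed SOX9 fused to the HaloTag (L30prom_Sox9-GDGAGLIN-Halo-V5_IRES_Puro) or to mEGFP (L30prom_Sox9-GDGAGLIN-mEGFP-V5_IRES_Puro). SOX9-Halo_spheroid and SOX9-mEGFP_spheroid expressed the same fusions after longer culture, when the organoids had become round, and carried a further transgene, L30prom_H2B-GDGAGLIN-mEGFP-V5_IRES_Zeo in the SOX9-Halo_spheroid line and L30prom_H2B-GDGAGLIN-mScarletI-V5_IRES_Neo in the SOX9-mEGFP_spheroid line. Shape, time in culture and this added transgene therefore change together and cannot be told apart. The paper orders the conditions by time in culture with Halo-NLS first, so that time in culture also differs between the control and the budding conditions. Each condition comes from a single transduced and antibiotic-selected line, and per the paper the budding and spheroid conditions with the same tag are stages of the same SOX9 line. Organoids were harvested from 6 wells on day 5 after seeding, at passages that could differ slightly within a condition. The spread between the 3 libraries, which the labels call biological replicates, is therefore the spread within a line.

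In the adult stomach, surface mucous cells make the mucin Muc5ac and the trefoil peptide Tff1, mucous neck and gland cells make Muc6 and Tff2, chief cells make the pepsinogens, and parietal cells secrete acid through a proton pump whose catalytic subunit is Atp4a. Pgc encodes progastricsin, also called pepsinogen C. Vsig1 encodes an adhesion protein of the immunoglobulin superfamily in gastric epithelial junctions, and Gkn3 a gastrokine, a small secreted protein of the gastric mucosa. The small intestine uses other members of the same families, such as the goblet cell mucin Muc2 and the trefoil peptide Tff3, and its epithelium is held in the intestinal state by the transcription factors Cdx1, Cdx2 and Hnf4a. SOX9 is a transcription factor of crypt stem, progenitor and Paneth cells.

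Counts are given as CPM, the usual measure of reads relative to library size, here after scaling by the trimmed mean of M values, and levels of different genes are compared only as CPM per kilobase of exon. A gene was called when edgeR's quasi-likelihood test gave a Benjamini-Hochberg adjusted p of at most 0.01, a change of at least 2-fold and a mean normalized count over all libraries of at least 10. Between 28062722 and 40559766 reads per library were counted on genes. Halo-NLS replicate 3 stood apart from the other control libraries, with a count on 40375 genes against 29003 and 24214 in replicates 1 and 2. That was the highest number of all libraries, as was its share of reads on more than 1 gene (13.6%). Of the 78298 genes 17560 had enough counts to be tested, among them 6 of the 8 gastric genes. Muc5ac and Muc6 did not. Sox9, whose reads include those of the transgene, was at 15.8 ± 6.92 CPM (SD, n = 3) in Halo-NLS and between 39.8 and 705 CPM in each of the 12 SOX9 libraries, above every control library. Intestinal markers were present in the control, where Sis, the brush border sucrase-isomaltase, was at 1016 ± 1184 CPM (SD, n = 3) and Fabp1, the fatty acid binding protein of enterocytes, at 2867 ± 1044 CPM (SD, n = 3), while Fabp1 was at 1.26 ± 0.616 CPM (SD, n = 3) in SOX9-Halo_spheroid. RNA came from whole organoids, so that fewer cells of a type and less RNA per cell cannot be told apart.

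Promoters are shown for the members called in both tagged lines in the same direction from budding to spheroid, Vsig1 and Pgc, which were high in the spheroid lines, and Gkn3, which was high in the budding lines. Each runs from 250 bases before to 50 bases after the start of the main transcript in GENCODE M39, 5′ to 3′ on the gene's own strand, from the GRCm39 genome. Capitals mark matches on either strand to any of 4 short motifs. AACAAT is the core bound by SOX proteins such as SOX9 itself. The motif TTTATG stands for the core of the intestinal CDX factors. Of these, Cdx2 was at 438 CPM in Halo-NLS, 294 in SOX9-mEGFP_budding and 296 in SOX9-Halo_budding. In SOX9-mEGFP_spheroid Cdx2 was at 76.8 CPM and in SOX9-Halo_spheroid at 2.69. For the GATA factors of stomach and intestine the letters searched were AGATAA, read on each strand. For TEAD factors, the partners of YAP, they were GGAATG, and no motif overlaps another in the windows shown. The Vsig1 promoter is at chrX:139808107-139808406 on the plus strand, that of Pgc at chr17:48037510-48037809 on the plus strand, and that of Gkn3 at chr6:87365868-87366167 on the minus strand.
Vsig1: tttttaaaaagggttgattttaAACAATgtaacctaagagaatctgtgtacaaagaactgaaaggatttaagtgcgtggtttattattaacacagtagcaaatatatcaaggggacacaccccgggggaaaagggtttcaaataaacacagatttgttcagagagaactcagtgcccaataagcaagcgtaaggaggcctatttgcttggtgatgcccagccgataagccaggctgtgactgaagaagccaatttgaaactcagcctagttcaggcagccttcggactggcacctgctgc
Pgc: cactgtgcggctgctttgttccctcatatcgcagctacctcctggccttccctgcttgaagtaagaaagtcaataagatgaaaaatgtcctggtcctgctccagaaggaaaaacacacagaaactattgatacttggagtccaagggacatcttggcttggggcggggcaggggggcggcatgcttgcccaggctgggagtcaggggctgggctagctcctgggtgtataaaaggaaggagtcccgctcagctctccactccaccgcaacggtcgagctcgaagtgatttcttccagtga
Gkn3: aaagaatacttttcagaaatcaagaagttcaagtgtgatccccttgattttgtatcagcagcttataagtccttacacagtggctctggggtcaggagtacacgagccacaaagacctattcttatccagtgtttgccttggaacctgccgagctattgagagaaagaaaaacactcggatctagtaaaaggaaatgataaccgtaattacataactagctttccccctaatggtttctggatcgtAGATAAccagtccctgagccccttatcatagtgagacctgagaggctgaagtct

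Vsig1 had a SOX core, beginning 228 bases before the start, and Gkn3 a GATA core 4 bases before it. Pgc had none of the 4 motifs in this window. Among all 8 members the SOX core was found in 1, the CDX core in 0, the GATA core in 2 (Muc6 and Gkn3) and the TEAD core in 1 (Tff2). The share of 21770 promoters of protein-coding genes with a match was 10.6% for the SOX core, 11.0% for the CDX core, 10.6% for the GATA core and 14.0% for the TEAD core. These are matches of letters and say nothing on whether a factor binds.

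In the control and in both budding lines the 8 genes were low, and in both spheroid lines their sum was higher through Vsig1 and Pgc. The summed level was 8.49 to 11.3 CPM in the Halo-NLS libraries, 7.74 to 12.6 in SOX9-mEGFP_budding, 7.16 to 12.2 in SOX9-Halo_budding, 214 to 240.2 in SOX9-mEGFP_spheroid and 190 to 385 in SOX9-Halo_spheroid. No spheroid library overlapped a library of the other 3 conditions. Per kilobase the order of the members also differed. Tff2 led in Halo-NLS at 2.73 CPM per kilobase and in SOX9-mEGFP_budding at 3.34, Gkn3 led in SOX9-Halo_budding at 3.91, Vsig1 in SOX9-mEGFP_spheroid at 67.6 and Pgc in SOX9-Halo_spheroid at 147.

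**Figure D1:**
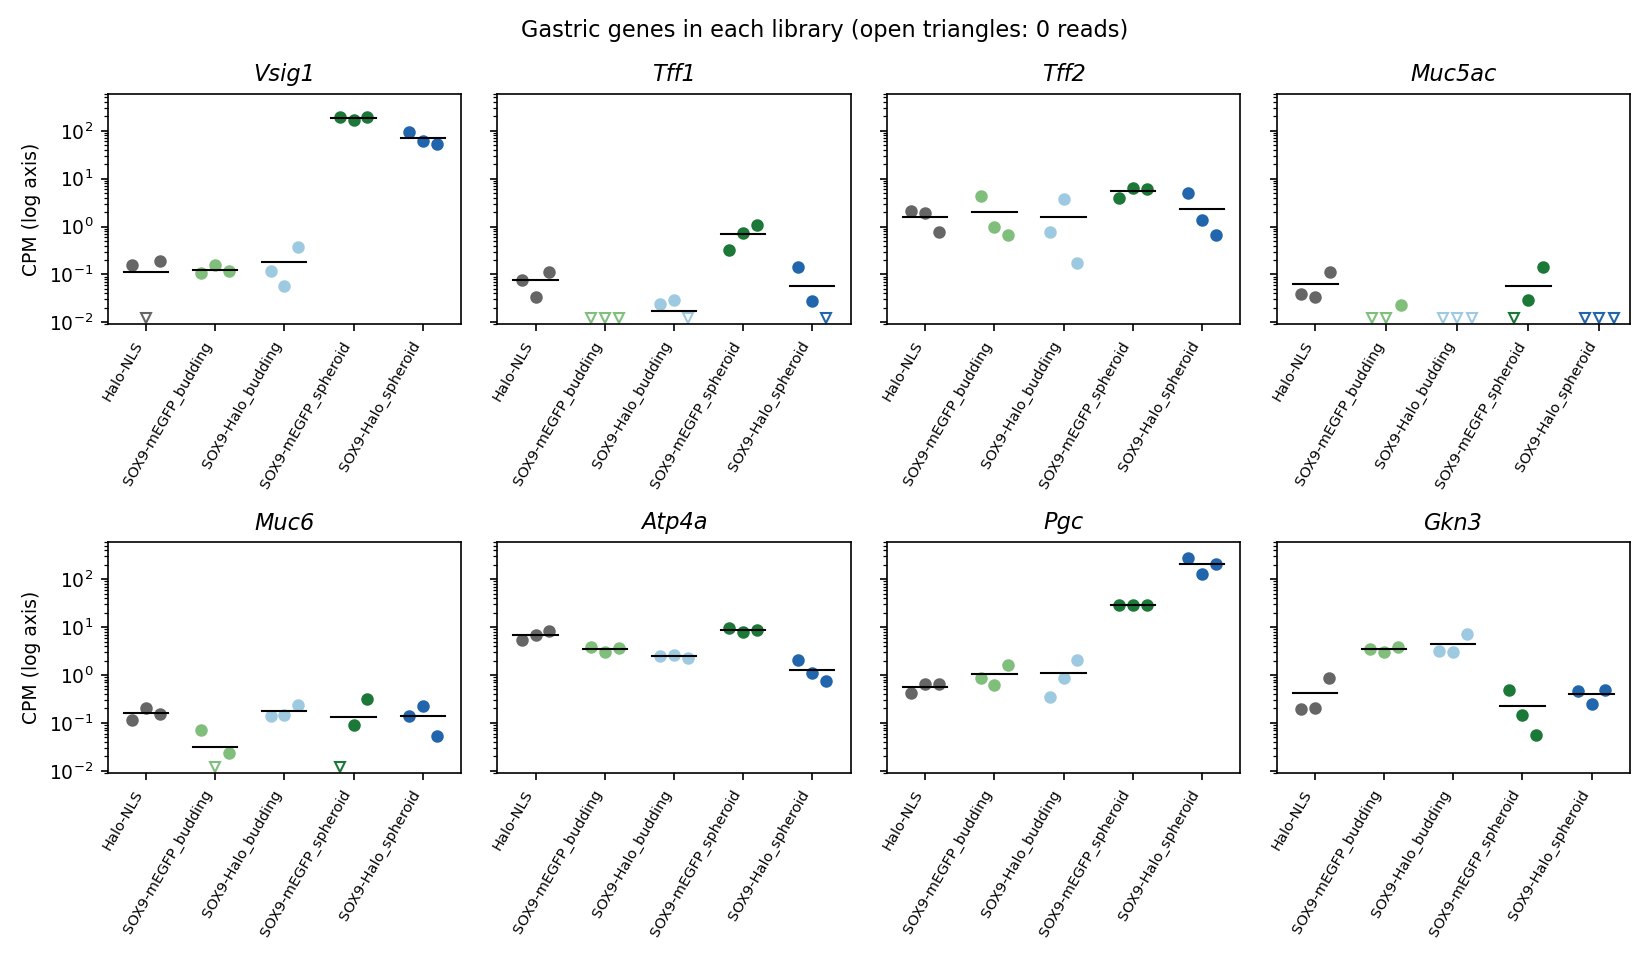
Level of each of the 8 gastric genes in every library, as CPM on a log axis, by condition. Points are libraries, black lines the mean of 3 and open triangles libraries with 0 reads. Vsig1 and Pgc stand far above the other conditions in both spheroid lines, Gkn3 is highest in both budding lines, and Muc5ac and Muc6 stay below 1 CPM throughout.

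Vsig1 (ENSMUSG00000031430, chromosome X, 139808357 to 139840221, GRCm39) went from a few reads per library to levels of at least 53.6 CPM. It had 4, 0 and 5 reads in the Halo-NLS libraries (0.156, 0 and 0.187 CPM), 3, 5 and 5 in SOX9-mEGFP_budding (0.109, 0.155 and 0.116 CPM) and 5, 2 and 13 in SOX9-Halo_budding (0.119, 0.0580 and 0.378 CPM). In SOX9-mEGFP_spheroid it had 7440, 5706 and 6846 reads (197, 170 and 194 CPM), and in SOX9-Halo_spheroid 2652, 2118 and 1996 (93.6, 59.7 and 53.6 CPM). Every spheroid library was above every other library, and every SOX9-mEGFP_spheroid library above every SOX9-Halo_spheroid library. Against Halo-NLS the log2 fold change was 10.67 (SE 0.62, edgeR adjusted p = 2e-08) in SOX9-mEGFP_spheroid and 9.23 (SE 0.60, edgeR adjusted p = 1.7e-08) in SOX9-Halo_spheroid. These sizes rest on 9 control reads in all, and the ratio of summed levels had an exact 95% counting interval of 896 to 3720 in the first and of 320 to 1330 in the second. Against the budding line with the same tag, the log2 fold change was 10.49 (SE 0.60, edgeR adjusted p = 2.4e-08) for mEGFP and 8.54 (SE 0.56, edgeR adjusted p = 2.3e-08) for Halo. In the budding lines, the log2 fold change against Halo-NLS was 0.18 (SE 0.79) for mEGFP and 0.69 (SE 0.735) for Halo, with overlapping libraries and adjusted p of 0.89 and 0.50. Vsig1 was lower in SOX9-Halo_spheroid than in SOX9-mEGFP_spheroid by a log2 fold change of -1.44 (SE 0.38), which missed the threshold at an edgeR adjusted p of 0.012. It was called in 10 of the alternatives, 1 of which only loosened the threshold to 0.05. Among the 10 were DESeq2 and the fit with the replicate block (adjusted p = 0.0077). They also include the fits without any of Halo-NLS replicates 1, 2 and 3 or SOX9-Halo_budding replicates 2 and 3 (adjusted p = 0.0033 to 0.0092).

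Pgc (ENSMUSG00000023987, chromosome 17, 48037760 to 48045407) rose in the same libraries but in the opposite order. It was at 0.43, 0.65 and 0.64 CPM in Halo-NLS, at 0.87, 0.62 and 1.62 in SOX9-mEGFP_budding and at 0.36, 0.87 and 2.09 in SOX9-Halo_budding. It was at 29.2, 28.7 and 29.5 CPM in SOX9-mEGFP_spheroid and at 284, 127 and 204 in SOX9-Halo_spheroid. The 3 other conditions overlapped each other, and the 2 spheroid lines overlapped neither them nor each other. Against Halo-NLS the log2 fold change was 8.47 (SE 0.63, edgeR adjusted p = 6e-08) in SOX9-Halo_spheroid and 5.66 (SE 0.57, edgeR adjusted p = 2e-06) in SOX9-mEGFP_spheroid. Against the budding line with the same tag it was 7.54 (SE 0.59, edgeR adjusted p = 1.2e-07) for Halo and 4.78 (SE 0.53, edgeR adjusted p = 8.2e-06) for mEGFP. SOX9-Halo_spheroid exceeded SOX9-mEGFP_spheroid by 2.81 (SE 0.47, edgeR adjusted p = 0.00037), or 7.03-fold. With Halo the rise on becoming spheroid was larger than with mEGFP by 2.76 (SE 0.68), which missed the threshold at an edgeR adjusted p of 0.012. It passed in the fit with the replicate block (adjusted p = 0.0079) and without SOX9-Halo_budding replicate 3 (log2 difference 3.62, adjusted p = 0.0010).

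Vsig1 and Pgc thus stood in a different ratio in each spheroid line. Per kilobase of exon, Vsig1 was 3.40, 2.99 and 3.32 times Pgc in the SOX9-mEGFP_spheroid libraries and 0.166, 0.237 and 0.132 times Pgc in the SOX9-Halo_spheroid libraries. The ratios of the 2 lines did not overlap.

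**Figure D2:**
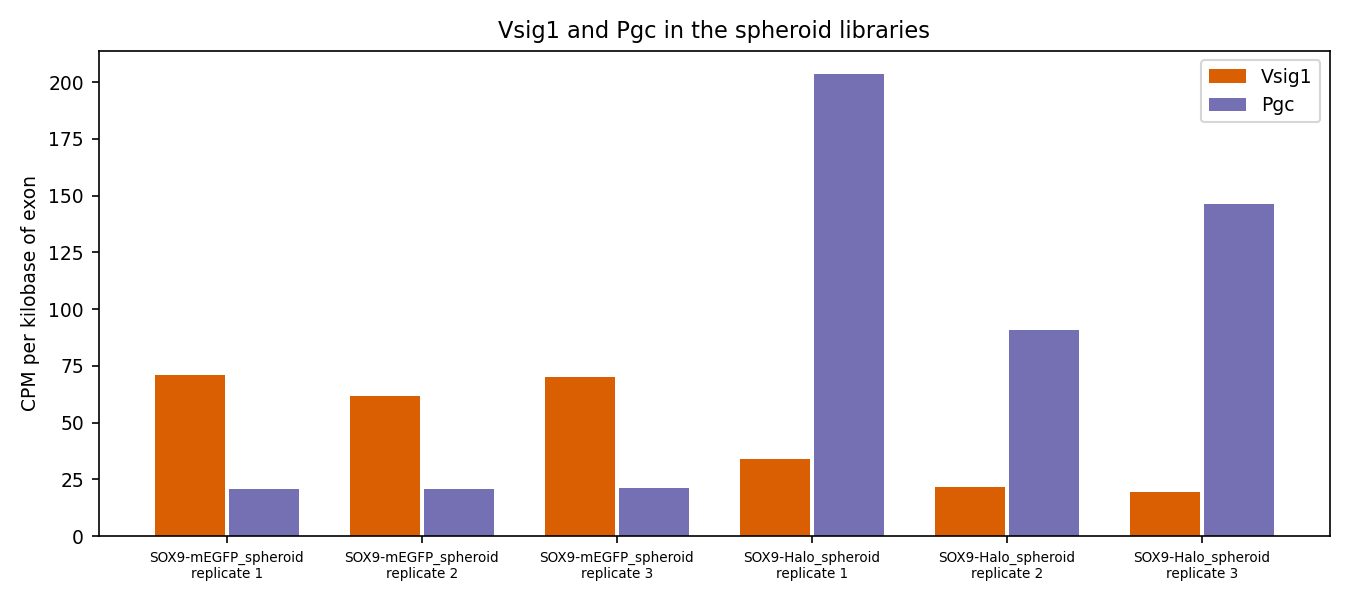
Vsig1 and Pgc in each spheroid library, in CPM per kilobase of exon. Bars are single libraries. Vsig1 is the taller bar in every SOX9-mEGFP_spheroid library and Pgc in every SOX9-Halo_spheroid library.

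The genes whose log2 CPM followed Vsig1 most closely over the 15 libraries were Ly6g6e, Cav1 and Anxa5, each with a Pearson r of 0.991. Ly6g6e was at 4.28 CPM in SOX9-mEGFP_spheroid and 3.34 in SOX9-Halo_spheroid, Cav1, a coat protein of caveolae, at 42.1 and 18.6, and Anxa5, an annexin, at 137 and 122. Those closest to Pgc were Ltf, the iron-binding lactotransferrin, and Alox15, a lipoxygenase, both with r of 0.990, and Syt16 with 0.989. Like Pgc they were higher in SOX9-Halo_spheroid than in SOX9-mEGFP_spheroid, at 422 against 33.7 CPM for Ltf, 34.1 against 5.49 for Alox15 and 29.9 against 8.56 for Syt16. The r between Vsig1 and Pgc was 0.918, which put Pgc at rank 503 among the genes most like Vsig1. These correlations are descriptions, since the points share 5 conditions and their scaling.

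Gkn3 (ENSMUSG00000030048, chromosome 6, 87360238 to 87365917, minus strand) had the reverse course. It was at 3.48, 3.00 and 3.83 CPM in SOX9-mEGFP_budding and at 3.22, 3.07 and 7.06 in SOX9-Halo_budding, against 0.19, 0.21 and 0.86 in Halo-NLS, 0.48, 0.15 and 0.06 in SOX9-mEGFP_spheroid and 0.46, 0.25 and 0.48 in SOX9-Halo_spheroid. Every budding library was above every library of the other 3 conditions. From budding to spheroid it fell by 3.87 on the log2 scale (SE 0.64, edgeR adjusted p = 0.00031) with the mEGFP tag and by 3.47 (SE 0.61, edgeR adjusted p = 0.00029) with the Halo tag. Against Halo-NLS it rose by 3.03 (SE 0.62, edgeR adjusted p = 0.0077) in SOX9-mEGFP_budding and by 3.40 (SE 0.62, edgeR adjusted p = 0.0038) in SOX9-Halo_budding. Neither spheroid line was distinguished from Halo-NLS, with log2 fold changes of -0.85 (SE 0.695, adjusted p = 0.32) and -0.08 (SE 0.66, adjusted p = 0.94).

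The calls of Gkn3 against Halo-NLS depended on the libraries fitted. In a fit of the compared libraries alone the adjusted p was 0.053 for SOX9-Halo_budding and 0.028 for SOX9-mEGFP_budding. The call in SOX9-Halo_budding was lost without Halo-NLS replicate 2 (adjusted p = 0.021) and without SOX9-Halo_budding replicate 3 (adjusted p = 0.016). The call in SOX9-mEGFP_budding was lost without any of Halo-NLS replicate 2, SOX9-mEGFP_budding replicates 1, 2 and 3, SOX9-Halo_budding replicate 1, SOX9-mEGFP_spheroid replicate 2 and SOX9-Halo_spheroid replicates 1, 2 and 3, at adjusted p of 0.010 to 0.039 and log2 fold changes of 2.70 to 3.13. The falls from budding to spheroid were called in every alternative run. The closest genes to Gkn3 over the 15 libraries were Pde3b, a phosphodiesterase, at r of 0.946, a gene listed only as ENSMUSG00000122829 at 0.919 and Tmem44 at 0.887. Pde3b was at 0.139 CPM in Halo-NLS, 1.32 in SOX9-mEGFP_budding, 3.72 in SOX9-Halo_budding, 0.00881 in SOX9-mEGFP_spheroid and 0.0414 in SOX9-Halo_spheroid. Its neighbour on chromosome 6, the gastrokine gene Gkn2, 3758 bases away, rose from budding to spheroid with the mEGFP tag (edgeR adjusted p = 0.00039), at 0.0671 ± 0.0587 CPM (SD, n = 3) in SOX9-mEGFP_budding and 2.14 ± 0.872 CPM (SD, n = 3) in SOX9-mEGFP_spheroid. With the Halo tag it had 0 reads in each budding library and was at 0.148 ± 0.0185 CPM in SOX9-Halo_spheroid (adjusted p = 0.017, and 0.64 against Halo-NLS).

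Atp4a (ENSMUSG00000005553, chromosome 7, 30411634 to 30424959), the proton pump subunit, was the 1 member for which the tags were called different in how spheroid and budding lines compared. It was at 5.37, 6.91 and 8.47 CPM in Halo-NLS, at 3.80, 3.00 and 3.60 in SOX9-mEGFP_budding and at 2.51, 2.61 and 2.30 in SOX9-Halo_budding. It was at 9.52, 7.85 and 8.66 CPM in SOX9-mEGFP_spheroid and at 2.01, 1.13 and 0.75 in SOX9-Halo_spheroid. Only the SOX9-mEGFP_spheroid and Halo-NLS libraries overlapped. From budding to spheroid it rose by 1.32 on the log2 scale (SE 0.30, edgeR adjusted p = 0.0036) with the mEGFP tag, and with the Halo tag the log2 fold change was -0.94 (SE 0.31, adjusted p = 0.025). The difference between these changes was -2.26 (SE 0.43, edgeR adjusted p = 0.0023). Between the spheroid lines Atp4a was lower in SOX9-Halo_spheroid by a log2 fold change of -2.75 (SE 0.32, edgeR adjusted p = 1.5e-05).

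Against Halo-NLS, Atp4a fell by 2.42 in SOX9-Halo_spheroid (SE 0.32, edgeR adjusted p = 1.8e-05) and by 1.48 in SOX9-Halo_budding (SE 0.305, edgeR adjusted p = 0.0074). In SOX9-mEGFP_budding the log2 fold change was -0.996 (SE 0.30, adjusted p = 0.040) and in SOX9-mEGFP_spheroid 0.33 (SE 0.295, adjusted p = 0.37). The call in SOX9-Halo_budding was lost without TMM scaling (adjusted p = 0.013), with the compared libraries alone (adjusted p = 0.063), and without any of Halo-NLS replicates 2 and 3, SOX9-mEGFP_budding replicates 1 and 2, SOX9-Halo_budding replicates 1, 2 and 3, SOX9-mEGFP_spheroid replicates 1, 2 and 3 and SOX9-Halo_spheroid replicate 2 (adjusted p = 0.011 to 0.037, log2 fold change -1.52 to -1.31). The rise from SOX9-mEGFP_budding to SOX9-mEGFP_spheroid was lost without any library of these 2 conditions, replicates 1, 2 and 3 of each (adjusted p = 0.010 to 0.025, log2 fold change 1.20 to 1.39). The change with the Halo tag passed without SOX9-Halo_spheroid replicate 1 (log2 fold change -1.39, adjusted p = 0.0019). Atp4b, the other subunit of the pump, had at most 2 reads in any library. The closest genes to Atp4a over the 15 libraries were Tmem54 at r of 0.949, Steap1, a metalloreductase, at 0.943 and Gm15912 at 0.939. Tmem54 was at 341 CPM in SOX9-mEGFP_spheroid and 82.6 in SOX9-Halo_spheroid.

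Tff1 and Tff2, the gastric trefoil peptides, lie side by side with the intestinal Tff3 on chromosome 17. Tff1 (31380369 to 31384251, minus strand) had 12, 24 and 37 reads in the SOX9-mEGFP_spheroid libraries (0.32, 0.72 and 1.05 CPM) and at most 4 in any other library. It had 0 reads in all 3 SOX9-mEGFP_budding libraries, against which the level in SOX9-mEGFP_spheroid was at least 7.69-fold higher, taking 3 reads per library as the limit of a count of 0. Against Halo-NLS, with 6 reads in all, the ratio of levels was 9.32 (exact 95% interval 4.08 to 26.2) and against SOX9-Halo_spheroid, with 5 reads, 13.8 (5.67 to 43.9). Such intervals and limits cover counting error only. No library of the other conditions reached the lowest SOX9-mEGFP_spheroid library. The mean normalized count of Tff1 was 5.66, under the minimum of 10, so that it was not called, although the edgeR adjusted p against Halo-NLS was 0.0050. With the mean taken over the compared libraries it passed against Halo-NLS, SOX9-mEGFP_budding and SOX9-Halo_spheroid. Tff1 shares 326 of its 703 exon bases with Gm15318, a long noncoding RNA on the other strand. Counting was without strand, so reads on these bases fell on more than 1 gene and were left out. The level of Tff1 may therefore be underestimated.

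Tff2 (31360023 to 31363262, minus strand) did not pass the test in any comparison. It was at 2.10, 1.95 and 0.79 CPM in Halo-NLS, 4.31, 0.96 and 0.65 in SOX9-mEGFP_budding, 0.78, 3.80 and 0.17 in SOX9-Halo_budding, 3.94, 6.47 and 6.13 in SOX9-mEGFP_spheroid and 5.01, 1.35 and 0.67 in SOX9-Halo_spheroid. The libraries of a line differed by up to 21.8-fold, in SOX9-Halo_budding, and the SOX9-mEGFP_spheroid libraries were above all Halo-NLS libraries but overlapped SOX9-mEGFP_budding and SOX9-Halo_spheroid. The log2 fold change of SOX9-mEGFP_spheroid against Halo-NLS was 1.77 (SE 0.92, edgeR adjusted p = 0.12). Without the filter on low counts this comparison and that with SOX9-mEGFP_budding passed, at adjusted p of 5.3e-05 and 0.0015. Its closest genes were Unc13a at r of 0.951, Smim14 at 0.944 and Map2k1, a kinase of the MAP kinase cascade, at 0.919. Tff3, made by intestinal goblet cells, was at 866 ± 93.4 CPM (SD, n = 3) in Halo-NLS, 643 ± 45.6 in SOX9-mEGFP_spheroid and 0.788 ± 0.301 in SOX9-Halo_spheroid. Per kilobase of exon, Tff2 was at most 0.00957 times Tff3 in the 12 libraries of the other conditions and 3.88, 2.10 and 0.875 times Tff3 in the SOX9-Halo_spheroid libraries, where Tff3 was the gene that fell.

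The gastric mucins stayed near the limit of detection. Muc5ac, the surface mucin, had 0 reads in 9 of 15 libraries and at most 5 in any, the latter in SOX9-mEGFP_spheroid replicate 3. It had 0 reads in every SOX9-Halo_budding and SOX9-Halo_spheroid library, where 3 reads would correspond to at most 0.106 CPM. Muc6, the gland mucin, had at most 11 reads in any library, again in SOX9-mEGFP_spheroid replicate 3, and its levels in the 2 spheroid lines overlapped those in Halo-NLS. It had 3 reads in all in SOX9-mEGFP_budding against 13 in Halo-NLS and 19 in SOX9-Halo_budding, with no overlap of libraries, a ratio of levels of 5.47 (exact 95% interval 1.5 to 29.9) and 5.88 (1.73 to 31.0). Neither was tested, and with the filter removed neither passed in any comparison. Both lie in a cluster on chromosome 7 with the intestinal mucin Muc2, at 288 ± 303 CPM (SD, n = 3) in Halo-NLS, 29.7 ± 28.0 in SOX9-mEGFP_spheroid and 0.218 ± 0.117 in SOX9-Halo_spheroid. Muc6 shares 94 exon bases with Ap2a2 on the other strand.

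Counted by comparison, 2 of the 6 tested members rose and 1 fell in SOX9-Halo_spheroid against Halo-NLS (Vsig1 and Pgc, and Atp4a), where 13.6% of all tested genes rose and 15.3% fell. In SOX9-mEGFP_spheroid against Halo-NLS 2 rose and 0 fell (Vsig1 and Pgc), beside 15.3% and 12.1% of tested genes. From budding to spheroid 2 rose and 1 fell with the Halo tag (Vsig1 and Pgc, and Gkn3), beside 10.5% and 14.7%, and 3 rose and 1 fell with the mEGFP tag (Vsig1, Pgc and Atp4a, and Gkn3), beside 8.55% and 7.88%. The budding lines against Halo-NLS gave 1 rise and 1 fall with Halo (Gkn3 and Atp4a), beside 2.49% and 1.26%, and 1 rise and 0 falls with mEGFP (Gkn3), beside 1.99% and 0.763%. The budding lines differed from each other in 0 members by edgeR, with 0 at an unadjusted p under 0.05 and 0 by DESeq2, beside 0.290% of tested genes higher and 0.165% lower with Halo. The spheroid lines differed in 2, Pgc higher and Atp4a lower with Halo, beside 3.59% and 9.58%. The test for unequal changes of the tags was called for 1 member, Atp4a, lower with Halo, beside 1.81% higher and 5.58% lower. The comparisons with Halo-NLS share its 3 libraries, and those with a given line share that line's libraries. The median log2 fold change of the 6 tested members was 0.22 in SOX9-Halo_spheroid against Halo-NLS, beside -0.01 over all tested genes, and 2.47 in SOX9-mEGFP_spheroid, beside 0.03.

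**Figure D3:**
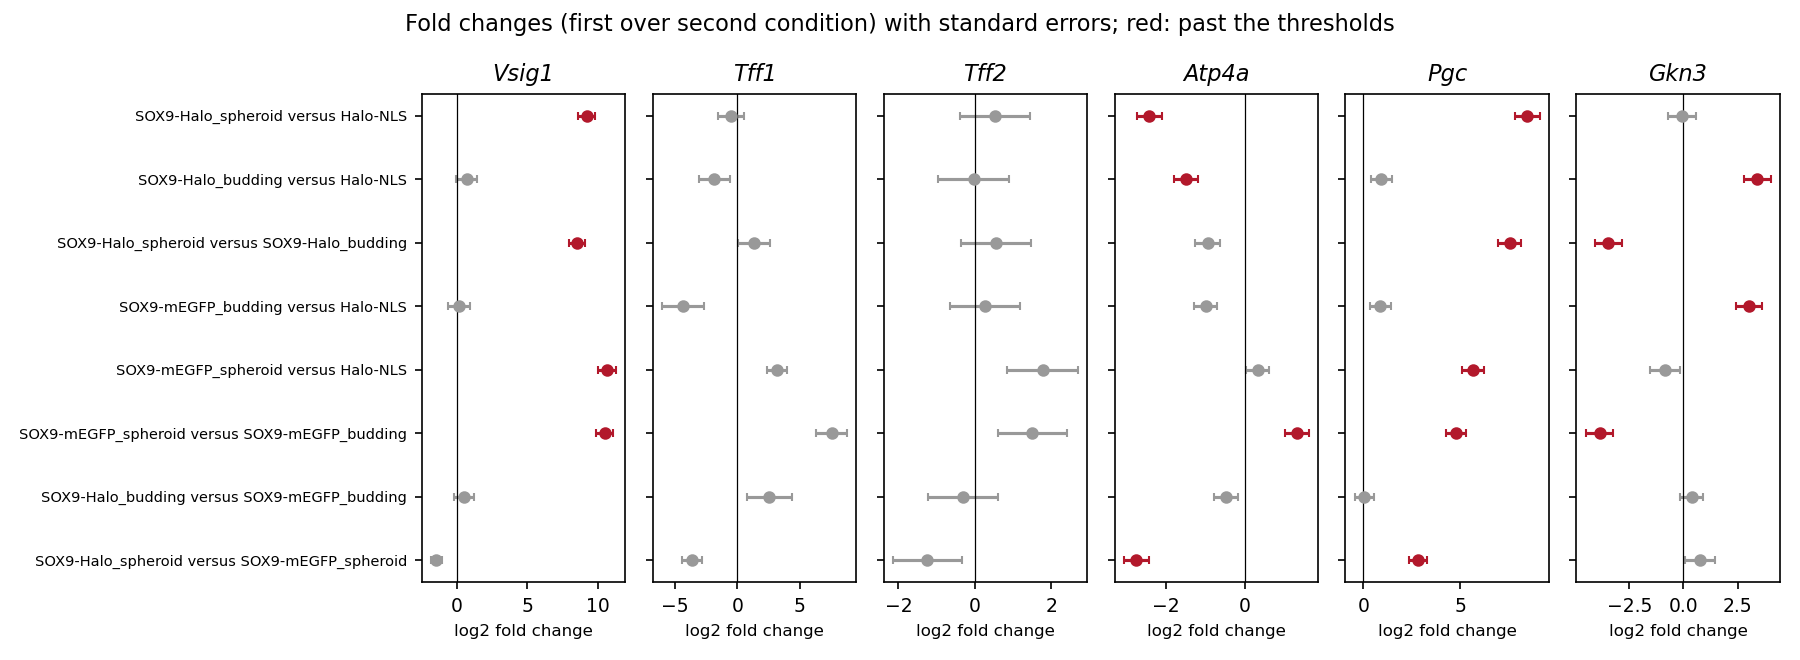
Log2 fold change of the 6 tested gastric genes in 8 comparisons, with bars of 1 standard error. Red points passed all thresholds. Vsig1 and Pgc are red and far to the right wherever a spheroid line is compared with Halo-NLS or with its budding line. Gkn3 moves right in the budding lines and left from budding to spheroid. Against Halo-NLS, Atp4a is red and left of 0 in SOX9-Halo_spheroid and lies near 0, not past the thresholds, in SOX9-mEGFP_spheroid.

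Other genes of the gastric cell types, from lists of markers, showed which of them accompanied the members. Of 9 tested genes of surface mucous cells, 6 rose and 0 fell in SOX9-mEGFP_spheroid against Halo-NLS, and 3 rose and 2 fell in SOX9-Halo_spheroid. Of all tested genes 15.3% rose and 12.1% fell with mEGFP, and 13.6% rose and 15.3% fell with Halo. The same shares stand beside the counts of every list below in these comparisons. Ctse, the aspartic protease cathepsin E, went from 0.134 ± 0.0929 CPM (SD, n = 3) in Halo-NLS to 78.1 ± 23.4 in SOX9-mEGFP_spheroid and 56.5 ± 19.3 in SOX9-Halo_spheroid (edgeR adjusted p = 2.2e-08 and 1.1e-08). Psca, a surface antigen anchored to the membrane, went from 0.636 ± 0.339 CPM to 9.16 ± 4.07 and 28.2 ± 23.0 (edgeR adjusted p = 0.00035 and 1.7e-05). Anxa10, an annexin, rose to 63.5 ± 9.76 CPM in SOX9-mEGFP_spheroid from 4.06 ± 1.12 in Halo-NLS (edgeR adjusted p = 9e-06) and was at 9.78 ± 3.19 in SOX9-Halo_spheroid (adjusted p = 0.023). Capn9, a calpain of the digestive tract, fell from 4.92 ± 1.53 CPM to 0.0541 ± 0.0707 in SOX9-Halo_spheroid (edgeR adjusted p = 6.3e-06) and was at 1.40 ± 0.254 in SOX9-mEGFP_spheroid (adjusted p = 0.011). Between the spheroid lines 5 of the 9 were lower with Halo and 0 higher, beside 9.58% and 3.59% of all tested genes. The median log2 fold change against Halo-NLS was 3.84 with mEGFP and 1.27 with Halo, beside 0.03 and -0.01 over all tested genes.

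Of 6 genes of neck cells and gastric metaplasia, 3 rose and 0 fell in SOX9-mEGFP_spheroid, and 3 rose and 3 fell in SOX9-Halo_spheroid. Clu, the secreted chaperone clusterin, went from 8.77 ± 6.06 CPM (SD, n = 3) in Halo-NLS to 4451 ± 548 in SOX9-mEGFP_spheroid and 2162 ± 320 in SOX9-Halo_spheroid (edgeR adjusted p = 9.3e-08 and 8.5e-08). Aqp5, a water channel of antral glands, had 1 read in each Halo-NLS library and rose to 25.3 ± 4.23 and 151 ± 21.1 CPM (edgeR adjusted p = 1.8e-08 and 1.5e-09). Dmbt1, a secreted scavenger receptor protein, fell from 611 ± 366 CPM to 0.891 ± 0.555 in SOX9-Halo_spheroid (edgeR adjusted p = 2.5e-06) and was at 333 ± 106 in SOX9-mEGFP_spheroid (adjusted p = 0.31). Cftr, the chloride channel, fell from 11.5 ± 12.0 CPM to 0.255 ± 0.0627 in SOX9-Halo_spheroid (edgeR adjusted p = 1.2e-05) and was at 35.9 ± 8.75 in SOX9-mEGFP_spheroid (adjusted p = 0.019). In SOX9-mEGFP_budding Cftr was at 53.5 ± 13.3 CPM. Clu, Dmbt1 and Cftr are also made outside the stomach. The paper counts Clu among the genes of fetal-like and regenerative signatures that its spheroids expressed.

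The rise of Pgc was not matched by the other chief cell genes. Of 5, the 3 named Cblif, Lipf and Chia1 were too low to be tested, and of the other 2, 0 rose and 1 fell in either spheroid line. Pga5, the other pepsinogen measured, had 0 reads in every SOX9-Halo_spheroid library and at most 1 in a SOX9-mEGFP_spheroid library, against 0.857 ± 0.391 CPM (SD, n = 3) in Halo-NLS (edgeR adjusted p = 9e-05 and 0.00028). Of 8 further parietal cell genes 4 were tested. Slc26a9, a chloride transporter, rose in both spheroid lines, from 0.112 ± 0.0998 CPM to 3.03 ± 1.10 with mEGFP and 15.0 ± 6.71 with Halo (edgeR adjusted p = 4.2e-05 and 6.9e-07). Esrrg, a nuclear receptor, fell from 2.55 ± 1.68 CPM to 0.0277 ± 0.0284 with mEGFP and to 0 reads in each library with Halo (edgeR adjusted p = 4.9e-05 and 1.6e-05). Clic6, a chloride channel protein, fell from 113 ± 40.3 CPM to 2.38 ± 0.537 with Halo (edgeR adjusted p = 6.4e-09) and was at 211 ± 20.0 with mEGFP (adjusted p = 0.010, under the fold threshold). In the budding lines Clic6 was at 237 ± 36.6 CPM with mEGFP and 253 ± 43.8 with Halo. The 3 tested endocrine genes, Sst (somatostatin), Ghrl (ghrelin) and Hdc (histidine decarboxylase), which the intestine also makes, fell in both spheroid lines. Ghrl fell from 7.59 ± 2.98 CPM to 0.217 ± 0.0493 with mEGFP and 0.0508 ± 0.0214 with Halo (edgeR adjusted p = 1.5e-05 and 1.9e-06).

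Among 9 transcription factors of the foregut and stomach 6 were tested, and 3 rose and 2 fell in each spheroid line, though not the same 5. Sox21 and Foxq1 rose and Gata6 fell in both, while Pdx1, a factor of antrum, duodenum and pancreas, rose with mEGFP to 12.5 ± 0.574 CPM (SD, n = 3) from 3.88 ± 1.15 in Halo-NLS and fell to 1.33 ± 0.639 with Halo (edgeR adjusted p = 0.0009 and 0.002). In the budding lines Pdx1 was already at 9.22 ± 1.215 CPM with mEGFP and 9.32 ± 2.83 with Halo (edgeR adjusted p = 0.027 and 0.021 against Halo-NLS). From budding to spheroid it was called with Halo, as a fall, and not with mEGFP. Pdx1 was singled out after its values were seen. Sox2, a defining factor of the foregut and stomach, had 0 reads in all 15 libraries, and Nkx6-3 and Barx1 were too low to be tested. Foxq1, a forkhead factor of surface mucous cells, rose from 29.7 ± 3.46 CPM (SD, n = 3) to 71.3 ± 13.9 with mEGFP and 77.2 ± 4.33 with Halo (edgeR adjusted p = 0.0016 and 0.00074). Gata6 fell from 112 ± 34.6 CPM to 40.1 ± 8.00 and 10.2 ± 3.24 (edgeR adjusted p = 0.00064 and 3.1e-07). Gata4, which like Gata6 acts in both stomach and proximal intestine, fell from 335 ± 80.2 CPM to 108 ± 26.5 with mEGFP (edgeR adjusted p = 0.00014) and was at 202 ± 25.6 with Halo (adjusted p = 0.027). Gata5 rose from 28.9 ± 7.07 CPM to 58.2 ± 8.4 with Halo (edgeR adjusted p = 0.0036) and was at 22.1 ± 4.92 with mEGFP (adjusted p = 0.20).

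**Figure D4:**
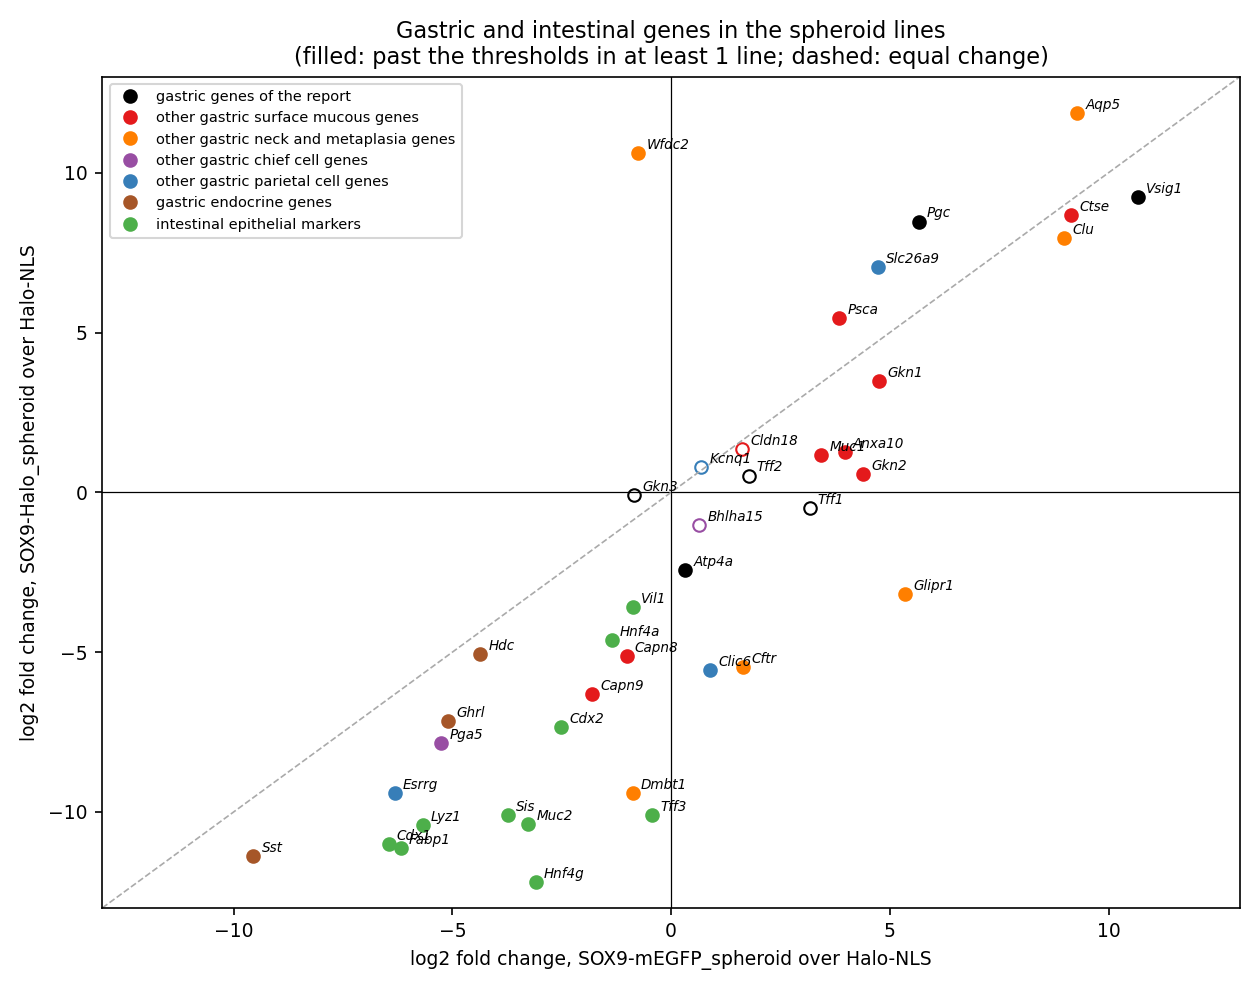
Log2 fold change against Halo-NLS in SOX9-mEGFP_spheroid (horizontal) and SOX9-Halo_spheroid (vertical) for the tested gastric genes and intestinal markers, coloured by list. Both axes share the Halo-NLS libraries. Filled points passed the thresholds in at least 1 line, and the dashed line marks equal change. Vsig1, Ctse, Clu, Aqp5 and Pgc lie at the upper right, while Tff1, Tff2, Gkn3 and Atp4a lie near 0 on at least 1 axis and the intestinal markers lie below 0 on both axes, Tff3 and Vil1 close to 0 on the horizontal one.

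Markers of other cell types were counted in the same way. Of 10 intestinal epithelial markers, 10 fell in SOX9-Halo_spheroid against Halo-NLS and 7 fell in SOX9-mEGFP_spheroid, beside 15.3% and 12.1% of all tested genes. Hnf4a fell from 1174 ± 305 CPM (SD, n = 3) to 48.0 ± 10.6 with Halo and 457 ± 82.8 with mEGFP (edgeR adjusted p = 9.2e-09 and 0.00037). All 10 were lower in SOX9-Halo_spheroid than in SOX9-mEGFP_spheroid, beside 9.58% of all tested genes. Squamous markers, which the mouse forestomach also makes, rose in 3 of 5 tested with Halo and 2 of 5 with mEGFP, such as Krt14, a basal keratin, from 0.112 ± 0.195 CPM to 6.54 ± 0.953 and 4.25 ± 0.779 (edgeR adjusted p = 3.1e-05 and 0.00011), and Sprr1a, a cornified envelope precursor, from 2.42 ± 0.2 to 39.9 ± 25.8 and 42.8 ± 24.9 (edgeR adjusted p = 9.8e-05 and 0.00011). Trp63, the defining squamous factor, was too low to be tested. Mesenchymal markers fell in 2 of 3 tested in either line (Vim and Pdgfrb). Of 2 tested immune markers, Cd68 rose in both lines, Itgam fell with Halo, and Ptprc and Cd3e were too low to be tested. The 1 tested acinar marker of the pancreas, Cela1, was called in SOX9-mEGFP_spheroid only, at 35.1 ± 8.45 CPM against 14.7 ± 6.11 in Halo-NLS (edgeR adjusted p = 0.0027). Their part in the levels of the gastric genes was not tested.

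In the budding lines against Halo-NLS none of these lists held a called gene except that of neck cells and metaplasia, in which Cftr rose in SOX9-Halo_budding to 68.2 ± 24.7 CPM (SD, n = 3, edgeR adjusted p = 0.0089). Of all tested genes 2.49% rose and 1.26% fell in SOX9-Halo_budding, and 1.99% rose and 0.763% fell in SOX9-mEGFP_budding.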

How the data were processed

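Per the labels and the methods of the study, the authors trimmed paired-end reads with cutadapt 4.5, aligned them to mm39 (GRCm39) with STAR, kept unique alignments and deposited whole-number counts per Ensembl gene from HTSeq 2.0.2, in union mode without strand and not normalized. Only these counts were used. The authors' normalized table and 7 comparison tables (DESeq2 fold changes and p-values) were not used. Reads on more than 1 gene (9.65% to 13.6%) or on no gene (1.83% to 6.09%) were left out of library sizes, and 0 columns of values were unassigned. Of the identifiers, 78168 were in GENCODE M39, which gave positions, exon lengths and transcript starts.

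Counts were scaled with TMM, filtered with filterByExpr by condition and fitted over all 15 libraries with the quasi-likelihood test of edgeR 4.0.16 (limma 3.58.1, R 4.3.3), with common biological coefficient of variation 0.302. Standard errors were taken from the F statistic, as the size of the log2 fold change over the root of F. Thresholds follow the study's. The fit was tested on simulated counts. DESeq2 1.42.0, other scalings, filters, thresholds, subsets of libraries and leave-outs were run as alternatives. Same-numbered libraries of SOX9-Halo_budding and SOX9-Halo_spheroid deviated together (r = 0.311, 0.180 and 0.269 over 15718 genes), the only comparison with every r above 0.1. Single values elsewhere were higher, up to 0.697 for replicate 2 of SOX9-Halo_budding and Halo-NLS, whose replicate 3 gave 0.0465. By this rule alone, since no source pairs them, the numbers were taken as pairs in the SOX9-Halo comparison and in no other. This pairing entered only the block alternatives. The main fit had no term for it, so the standard errors and p-values of that comparison ignore any pairing. Similar genes are the 3 with the highest Pearson r of log2 CPM (prior count 2), for members with a mean of at least 1 CPM in some condition. Named genes are the 8 members, their similar genes, Sox9, and from each other list up to 4 genes called in a spheroid line against Halo-NLS, by mean CPM. Genes named as untested or as neighbours (Tff3, Muc2, Gkn2, Atp4b, Sox2), and Pdx1, Sox21 and Cdx2, were chosen after their values were seen, as was the order of presentation. The members and lists were chosen with earlier results of these data known. Figures were drawn with matplotlib 3.10.9.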

Additional observations from a re-analysis of the deposited data

Results flagged for a closer look

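Atp4a, the catalytic subunit of the gastric proton pump, was singled out because the tags gave unequal changes on becoming spheroid in the test of the difference itself, by -2.26 on the log2 scale (SE 0.43, edgeR adjusted p = 0.0023). The change was 1.32 with the mEGFP tag and -0.94 with the Halo tag. Each tag stands for 1 line, and the spheroid lines also differ in their added transgene and passage, so that tag, line, transgene and passage cannot be told apart. With 3 libraries per condition, no test for single libraries far from the others was run, though fits without each library were.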

How the results depend on the processing

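Over the 54 combinations of a tested member and a comparison, 1238 alternative values were computed, of which 1152 kept direction and side of the threshold, 32 kept direction but lost the call, 25 kept direction and gained it and 29 changed sign. The calls of Vsig1 and Pgc in both spheroid lines, and the fall of Gkn3 from budding to spheroid, held in every alternative. For SOX9-Halo_budding against Halo-NLS the number of members called went from 2 to 1 with library sizes alone, to 0 with only the compared libraries and to 0 to 2 without single replicates. For SOX9-mEGFP_budding against Halo-NLS it went from 1 to 2 with DESeq2, to 0 with only the compared libraries and to 0 to 1 without single replicates. Between the spheroid lines it went from 2 to 4 with only the compared libraries. For the difference between the tags it went from 1 to 2 with no filter, with DESeq2, with the replicate block and at an adjusted p of at most 0.05, and to 1 to 2 without single replicates. The replicate block, in which the number is a shared label except between the SOX9-Halo lines, moved no other count by over 1.5 times. A block fit within the SOX9-Halo spheroid and budding libraries, added after seeing the data, called 3 members as before. The causes of these shifts were not tested.

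All values that changed sign were uncalled. Gkn3 in SOX9-Halo_spheroid against Halo-NLS became 0.22 with library sizes alone and 0.024 with no filter, and Tff2 in SOX9-Halo_budding against Halo-NLS 0.20 and 0.014. Without single replicates, log2 fold changes against Halo-NLS ran in SOX9-Halo_spheroid from -2.14 to 0.10 for Tff1, -0.67 to 0.95 for Tff2 and -0.40 to 0.98 for Gkn3. In SOX9-Halo_budding they ran from -0.26 to 1.26 for Vsig1 and -1.71 to 0.49 for Tff2, in SOX9-mEGFP_budding from -0.43 to 0.75 for Vsig1 and -1.01 to 0.71 for Tff2, and in SOX9-mEGFP_spheroid from -1.997 to 0.20 for Gkn3. From SOX9-Halo_budding to SOX9-Halo_spheroid they ran from -0.30 to 1.91 for Tff1 and -0.64 to 2.24 for Tff2. Between the budding lines they ran from -0.46 to 0.91 for Vsig1, -1.98 to 0.98 for Tff2, -0.80 to 0.52 for Pgc and -0.13 to 0.58 for Gkn3. For the difference between the tags they ran from -2.23 to 0.73 for Tff2 and -0.075 to 1.51 for Gkn3. Depth limits Muc5ac, Muc6 and Tff1, which had only a few reads in most libraries.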
